A study of Mus musculus with 6 samples.

Results

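A set of 10 genes that mark vascular endothelium, the cell layer that lines blood vessels, were followed through 6 mouse RNA sequencing libraries labelled as chondrocytes, the cells of cartilage. The genes were chosen by name: Pecam1, Cdh5, Kdr, Tek, Tie1, Flt1, Eng, Emcn, Cldn5 and Vwf. A row was present for 9 of the 10, among 11955 rows. Tek had no row, so its promoter was read but its level was not. The study concerns Eldr, a long noncoding RNA, and the senescence of chondrocytes, and its design sets 3 libraries with the genotype label control against 3 with the label Eldr cKI. The labels give neither the full form of cKI, nor the driver of the allele, nor the animals' age, and they do not say whether the 3 libraries of a group came from separate animals. Any p-value therefore rests on spread between these libraries, which may be technical. Those of limma use the spread typical of genes at a like level, and not each gene's own. Every row was protein-coding, and Eldr itself had 0 rows, so the altered gene could not be used to check the labels.

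Endothelial cells are held together by VE-cadherin at adherens junctions and by claudin-5 at tight junctions, and they respond to vascular endothelial growth factor (VEGF) and angiopoietins through receptor tyrosine kinases. Mature cartilage has no blood vessels, whereas vessels enter the hypertrophic zone of the growth plate as cartilage is replaced by bone. The 10 genes are commonly used to follow vascular cells in tissue RNA, though several are also made by blood or stromal cells.

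The label chondrocyte was set against its defining markers. Of 16 cartilage genes, 7 had a row, and Acan, Col9a1 and Col10a1 were among those without one. The 7 summed to 1.25 to 12.7 FPKM (fragments per kilobase of transcript, scaled to each library's mapped fragments) per library, and Col2a1 was listed above 0 in 2 libraries, both controls. The smallest mean of any row was 0.25 FPKM. Of 14 heart muscle genes, 13 had a row. These summed to 1390 to 6076 FPKM, and all 13 were above 0 in every library. The highest were Myh6 (195 to 1542 FPKM) and Actc1 (241 to 804 FPKM), while the highest cartilage genes, Sox9 and Prg4, reached 10.002 and 6.16 FPKM. Depth estimated from a common step of the FPKM values, described below, was about 64167 to 239144 fragments per library, and 4420 to 8969 genes were listed above 0. At that depth an exact 0 says only that a gene was listed at 0, as was Polr2a, which encodes the main subunit of RNA polymerase II, in control replicate 3 and Eldr cKI replicate 1. Some libraries stand apart. A group of 4 predicted genes held 64.6% of all FPKM in Eldr cKI replicate 1 and 4.40% to 16.9% elsewhere, hepatocyte genes summed to 7414 FPKM in control replicate 3 and 77.1 to 555 elsewhere, and macrophage genes summed to 13.1 FPKM in Eldr cKI replicate 3 and 191 to 310 elsewhere. Of the hepatocyte genes, Alb reached 3939 FPKM in control replicate 3, and Apoa2 was above 0 there alone, at 763 FPKM.

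Promoters of 7 of the 10 genes were found in RefSeq (GRCm38.p6), and those of 4 are shown because their genes stand for the patterns of the set: Eng was listed above 0 in every library, Tie1 in controls alone, Emcn in Eldr cKI libraries alone, and Cldn5 reached the highest value of any of these genes. Each runs from 250 bases before to 50 bases after the start site, 5′ to 3′ on the strand of the gene. Capitals mark AGGAAG or its reverse complement CTTCCT, letters that contain the core bound by ETS factors, a family with members such as Fli1 and Erg that act in endothelium.
Eng, chr2:32646345-32646644, plus strand: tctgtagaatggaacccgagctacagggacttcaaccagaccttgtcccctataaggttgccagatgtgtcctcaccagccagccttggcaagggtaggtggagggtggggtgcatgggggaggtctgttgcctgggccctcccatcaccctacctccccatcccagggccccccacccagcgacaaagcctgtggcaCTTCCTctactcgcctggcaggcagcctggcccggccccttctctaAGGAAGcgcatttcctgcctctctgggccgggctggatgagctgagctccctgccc
Tie1, chr4:118489800-118490099, minus strand: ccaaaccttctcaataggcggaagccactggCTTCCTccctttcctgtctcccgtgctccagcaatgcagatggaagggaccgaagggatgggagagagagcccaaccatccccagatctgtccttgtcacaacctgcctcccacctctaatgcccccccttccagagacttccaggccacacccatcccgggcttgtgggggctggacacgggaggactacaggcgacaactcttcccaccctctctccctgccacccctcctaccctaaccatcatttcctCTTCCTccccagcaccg
Emcn, chr3:137340828-137341127, plus strand: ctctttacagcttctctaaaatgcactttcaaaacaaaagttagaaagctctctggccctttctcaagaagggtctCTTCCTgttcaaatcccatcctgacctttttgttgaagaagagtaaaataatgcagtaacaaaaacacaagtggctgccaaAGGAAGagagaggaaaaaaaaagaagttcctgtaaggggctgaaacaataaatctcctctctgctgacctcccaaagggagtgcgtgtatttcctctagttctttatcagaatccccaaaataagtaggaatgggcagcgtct
Cldn5, chr16:18776597-18776896, plus strand: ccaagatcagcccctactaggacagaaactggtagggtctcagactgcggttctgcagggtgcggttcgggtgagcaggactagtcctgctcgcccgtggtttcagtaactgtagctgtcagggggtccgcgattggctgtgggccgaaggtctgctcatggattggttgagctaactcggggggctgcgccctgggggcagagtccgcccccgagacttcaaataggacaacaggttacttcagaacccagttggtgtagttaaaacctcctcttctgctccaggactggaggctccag
The letters occurred in 4 of the 7 promoters, those of Eng, Tie1, Emcn and Flt1, and in 35.4% of all 32851 promoters of this length. In Eng the matches began 52 and 6 bases upstream of the start site, and in Emcn 174 and 93 bases upstream. In Tie1 one match began 219 bases upstream and the other at base 34 of the transcript. The letters AGATAA or TTATCT, which contain the core of GATA factor motifs, occurred in 1 of the 7, that of Tek, and in 11.2% of all promoters, so in none of the 7 did the motifs overlap. A match describes the letters and is not evidence of binding.

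Endothelial genes were present at low levels in both groups, and none of the 8 that entered the fit differed between groups past the threshold. Eng and Pecam1 had the highest mean levels, and the members listed above 0 numbered 8, 6 and 3 in control replicates 1, 2 and 3 against 3, 8 and 2 in Eldr cKI replicates 1, 2 and 3. Values below follow the order of replicates 1, 2 and 3. Summed over the 9 genes, the level was 31.6, 21.1 and 23.9 FPKM across controls, against 6.76, 31.3 and 7.34 FPKM with Eldr cKI. The sums of the groups overlapped: Eldr cKI replicates 1 and 3 lay below all controls, and Eldr cKI replicate 2 lay beside the highest one. In bulk RNA, fewer endothelial cells and less of these transcripts per cell cannot be told apart.

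**Figure D1:**
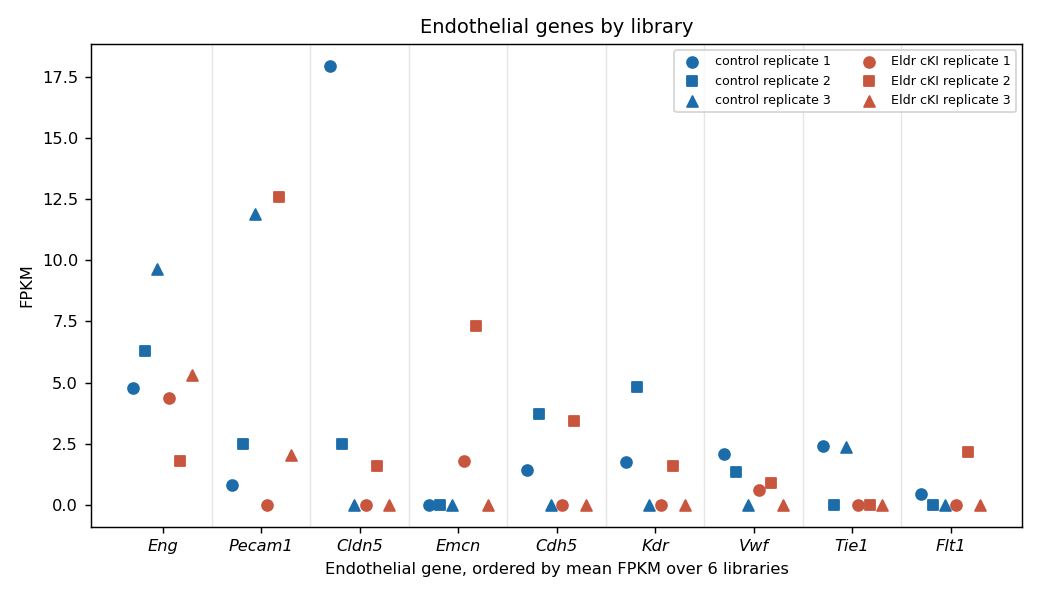
FPKM of the 9 endothelial genes with a row, 1 point per library, with control in blue and Eldr cKI in red and the marker shape giving the replicate number. Eng was above 0 in all 6 libraries, Tie1 points above 0 are controls, and Emcn points above 0 are Eldr cKI libraries.

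Among the receptors, endoglin (Eng, ENSMUSG00000026814.16, chr2:32646595-32682669 on GRCm38, plus strand) is a co-receptor for ligands of the TGF-beta family and is also made by some stromal cells and macrophages. It was at 4.77, 6.28 and 9.63 FPKM across controls, against 4.37, 1.79 and 5.30 FPKM with Eldr cKI. It was the one member above 0 in all 6 libraries, a pattern found in 13% of all rows. For Eng, 2 of the 3 Eldr cKI values lay below every control and the third, 5.30 FPKM, lay above the lowest control. The group levels were 6.89 ± 2.49 FPKM in control and 3.82 ± 1.82 FPKM in Eldr cKI (SD, n = 3 each). In limma the log2 fold change of Eng was -0.75 (SE 1.44, Benjamini-Hochberg adjusted p = 0.999). For Eng that value was -0.037 with the 4 predicted genes left out and the rest rescaled, and -0.39 with Eldr cKI replicate 2 left out. An exon of Eng overlaps an exon of Fpgs on the opposite strand, and the use of strand in counting is not stated in the labels.

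VEGF receptor 2 (Kdr, ENSMUSG00000062960.10, chr5:75932827-75978458, minus strand), the main signalling receptor for VEGF-A, was at 1.76, 4.82 and 0 FPKM across controls, against 0, 1.60 and 0 FPKM with Eldr cKI. VEGF receptor 1 (Flt1, ENSMUSG00000029648.13, chr5:147561604-147726011, minus strand), which binds the same ligand with weak kinase activity, was at 0.439, 0 and 0 FPKM across controls, against 0, 2.14 and 0 FPKM with Eldr cKI. Both genes were listed above 0 in control replicate 1 and Eldr cKI replicate 2, and the groups overlapped for each. The limma log2 fold change of Kdr was -0.88 (SE 1.21, adjusted p = 0.999), and it was -0.27 with control replicate 2 left out, -1.54 with control replicate 3 left out and -1.33 with Eldr cKI replicate 2 left out. Flt1 had a mean under 0.5 FPKM and did not enter the fit; with no filter its log2 fold change was 0.38 (SE 0.72, limma adjusted p = 0.971).

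Tie1 (ENSMUSG00000033191.14, chr4:118471191-118490061, minus strand) encodes a receptor that has no well-established ligand of its own and acts with TIE2, the angiopoietin receptor encoded by Tek. It was at 2.39, 0 and 2.35 FPKM across controls and listed at 0 in all 3 Eldr cKI libraries. The groups still touched, since control replicate 2 was also at 0, and Tie1 did not pass (limma adjusted p = 0.959). Among all rows, 5.27% were listed at 0 in every Eldr cKI library and above 0 in at least 2 controls.

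Among the junction genes, VE-cadherin (Cdh5, ENSMUSG00000031871.9, chr8:104101625-104144511, plus strand) was at 1.41, 3.70 and 0 FPKM across controls, against 0, 3.44 and 0 FPKM with Eldr cKI. Claudin-5 (Cldn5, ENSMUSG00000041378.1, chr16:18776847-18778260, plus strand) was at 17.95, 2.50 and 0 FPKM across controls, against 0, 1.57 and 0 FPKM with Eldr cKI. Both were listed above 0 in the same 3 libraries, control replicates 1 and 2 and Eldr cKI replicate 2, which are also the 3 libraries with Kdr. Their limma log2 fold changes were -0.45 (SE 1.24, adjusted p = 0.999) for Cdh5 and -1.56 (SE 1.38, adjusted p = 0.959) for Cldn5. That of Cdh5 turned to 0.038 with array quality weights and to 0.082 with control replicate 2 left out. The value for Cldn5 was -0.45 without control replicate 1 and -2.57 without control replicate 3. Pecam1 (ENSMUSG00000020717.19, chr11:106654217-106750628, minus strand), an adhesion molecule of endothelial junctions that platelets and leukocytes also carry, was at 0.802, 2.50 and 11.9 FPKM across controls, against 0, 12.6 and 2.04 FPKM with Eldr cKI. One library of each group was high and the others were low, so the groups overlapped over nearly their whole range. In limma its log2 fold change came to -0.33 (SE 1.45, adjusted p = 0.999), and its sign turned with control replicate 3 left out (0.46), with Eldr cKI replicate 1 left out (0.57) and with array quality weights (0.50).

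Both remaining members are surface or secreted glycoproteins. Endomucin (Emcn, ENSMUSG00000054690.17, chr3:137341067-137432185, plus strand), a sialoglycoprotein of capillary and venous endothelium that marks the vessels of the bone growth front, was listed at 0 in all 3 controls, and its Eldr cKI values were 1.79, 7.32 and 0 FPKM. Emcn thus had the opposite pattern to Tie1, and it did not pass either (limma adjusted p = 0.959). Of all rows, 3.09% were listed at 0 in every control and above 0 in at least 2 Eldr cKI libraries. Von Willebrand factor (Vwf, ENSMUSG00000001930.17, chr6:125546774-125686679, plus strand), a clotting glycoprotein stored by endothelium and megakaryocytes, was at 2.10, 1.33 and 0 FPKM across controls, against 0.602, 0.901 and 0 FPKM with Eldr cKI. In limma Vwf had a log2 fold change of -0.42 (SE 1.10, adjusted p = 0.999), and of 0.28 with quantile normalization. The Vwf value was -0.89 with control replicate 3 left out and -0.075 with control replicate 1 left out, the extremes of leaving out 1 library.

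**Figure D2:**
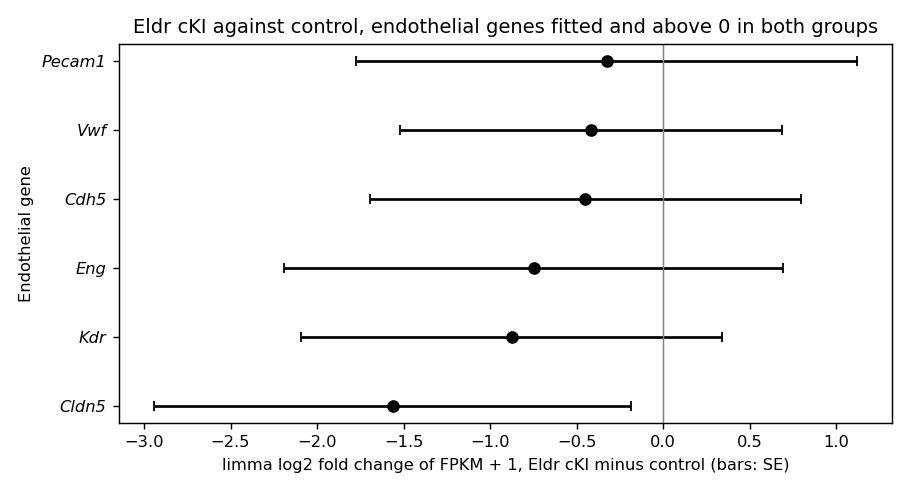
limma log2 fold changes of FPKM + 1, Eldr cKI minus control, for the 6 genes that entered the fit and were above 0 in both groups, with bars of 1 SE. The values run from -1.56 (Cldn5) to -0.33 (Pecam1), and no gene passed the threshold. The signs of Pecam1, Cdh5 and Vwf turned under other settings.

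Of the 8 members in the fit, 0 passed an adjusted p of 0.05, where 0.0278% of the 10772 genes fitted did, all of them lower in Eldr cKI. Other settings gave calls both ways: with control replicate 1 left out 5 genes were higher and 7 lower, and with array quality weights 4 were higher and 13 lower. At an unadjusted p under 0.05 the members numbered 0 and all genes 252, or 2.34%. The median log2 fold change was -0.60 over the 8 members and -0.04 over all genes fitted, with 7 of the 8 members below 0 (5 to 7 under the other settings that gave a median) and 51.1% of all genes below 0. Tie1 and Emcn, each listed at 0 throughout a group, lie on opposite sides of that median, so leaving both out cannot move it. The members' median was -1.17 with Eldr cKI replicate 2 left out, -0.44 with Eldr cKI replicate 3 left out, and -0.78 with control replicate 3 and Eldr cKI replicate 1 both left out. The SEs come from the trend of spread with level across genes and not from each gene's own replicates. In the authors' deposited table the p-values of the 9 genes ran from 0.116 (Tie1) to 0.824 (Pecam1), with q-values of at least 0.704. None of the 9 had a deposited p under 0.05 there, where 1.98% of all rows did.

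By mean FPKM over the 6 libraries, a scale that accounts for transcript length, the order was Eng (5.35), Pecam1 (4.97), Cldn5 (3.67), Emcn (1.52), Cdh5 (1.42), Kdr (1.36), Vwf (0.822), Tie1 (0.790) and Flt1 (0.430). Each of the 8 differences between neighbours in that order was smaller than the larger of the 2 genes' SDs over libraries. Eng and Pecam1 together made up 17.6%, 41.6% and 90.2% of the summed level of controls, against 64.6%, 45.8% and 100% in Eldr cKI. In control replicate 1 Cldn5 alone, at 17.95 FPKM, exceeded Eng (4.77 FPKM) and Pecam1 (0.802 FPKM) together.

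These levels correspond to very few sequenced fragments. For genes with 1 annotated transcript, the most crowded value of FPKM times length in each library was taken as 1 step. It was read as the worth of 1 fragment, although smaller values occurred. That value held 83 of 428 such genes above 0 in control replicate 2 and 40 of 647 in Eldr cKI replicate 3. Taken with each member's longest annotated transcript, 1 step of Cdh5 was worth 1.49, 3.90 and 2.97 FPKM across controls, against 2.42, 3.62 and 1.05 FPKM with Eldr cKI. The Cdh5 values above 0 then came to 0.944 and 0.947 steps in control replicates 1 and 2 and 0.951 in Eldr cKI replicate 2, which is close to a single fragment in each. Of the 9 genes, 6 were above 0 in at most 3 libraries, as were 58.9% of all rows. Of the 54 values of the 9 genes, 24 were at 0 (44.4%, against 46.8% of all values in the table). Of the 30 above 0, 16 came to at most 1.25 steps, and the 4 above 3 steps were Eng in Eldr cKI replicate 3 (4.33), Cldn5 in control replicate 1 (4.26), Pecam1 in control replicate 3 (3.45) and Vwf in control replicate 1 (3.11). Values below 0.9 steps numbered 12, the smallest being Cldn5 in Eldr cKI replicate 2 (0.154), so the steps do not divide the values into whole fragments. Summed over the 9 genes there were 15.5, 5.69 and 7.06 steps across controls, against 2.75, 8.52 and 6.01 in Eldr cKI. These rough steps cannot resolve a difference of a few fragments.

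**Figure D3:**
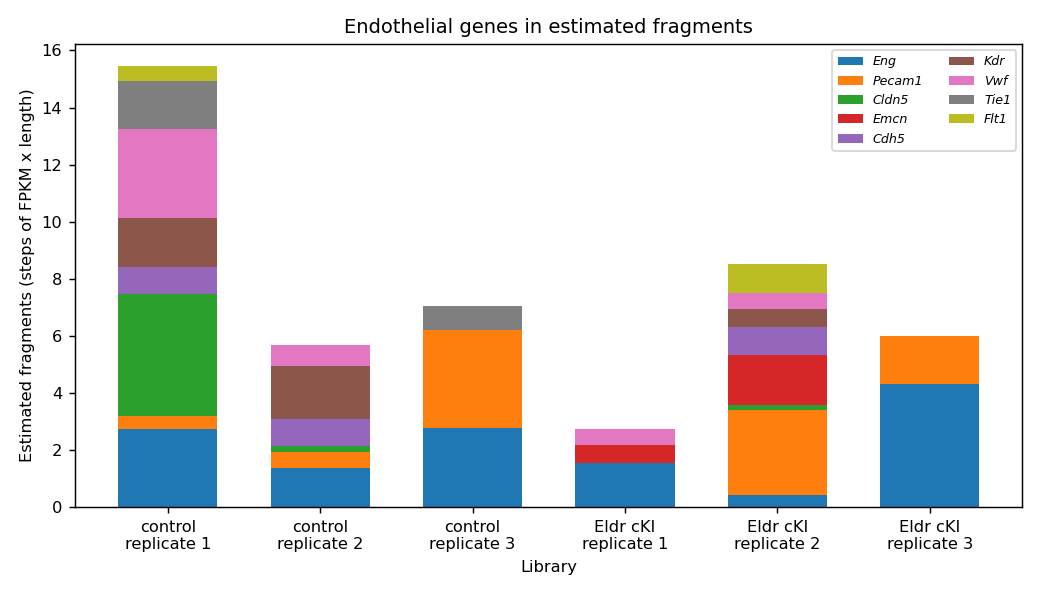
Estimated fragments per library, as steps of FPKM times the longest transcript, stacked by gene. Control replicate 1 reached 15.5 steps over 8 genes, and Eldr cKI replicate 3, the library with the greatest estimated depth, reached 6.01 steps over 2 genes.

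The number of members above 0 is set here beside the estimated depth, which is rough. The part of depth in the zeros was not tested. Members above 0 numbered 6 and 8 in the libraries of lowest depth, control replicate 2 (64167 fragments) and Eldr cKI replicate 2 (69111), and 3 in both control replicate 3 (84349) and Eldr cKI replicate 1 (103363). In that order, all genes above 0 numbered 5175, 5814, 5413 and 4420. Mitochondrially encoded genes held 50.9%, 43.9%, 68.3% and 8.51% of all FPKM in these libraries. The 4 predicted genes held 6.42%, 9.46%, 4.40% and 64.6%, so total depth overstates the depth left for other genes. Eldr cKI replicate 3 had the greatest estimated depth, 239144 fragments, and 8390 genes above 0. It listed Cdh5, Kdr, Tie1, Flt1, Emcn, Cldn5 and Vwf at 0. For Kdr, 1 step was worth 0.706 FPKM there, the lowest of any library. Control replicate 1, with 167566 fragments and 8969 genes above 0, listed 8 of the 9. Of the 75 genes of wider endothelial lists, 49 were above 0 in Eldr cKI replicate 3 and 56 in control replicate 1, against 31 to 44 in the other libraries. As a share of the summed housekeeping genes, the endothelial genes came to 1.15%, 1.46% and 1.39% across controls, against 0.692%, 1.43% and 0.219% in Eldr cKI. Of the summed heart muscle genes they came to 2.28%, 0.716% and 1.11% across controls, against 0.317%, 0.516% and 0.290% in Eldr cKI. By that share every control lay above every Eldr cKI library. The heart muscle sums themselves averaged 2163 FPKM in control and 3580 FPKM in Eldr cKI, and their part in that share was not tested. In Eldr cKI replicate 3 erythroid genes summed to 52.1 FPKM, against 418 to 977 in the other libraries, and mural cell genes to 28.9 FPKM, against 86.6 to 169, beside the macrophage sum given above. Listed above 0 there were 4 of 10 macrophage genes, 2 of 6 erythroid genes and 1 of 8 mural cell genes, against 4 to 7, 4 to 5 and 3 to 6 in the other libraries. Of the 2 highest genes of each of those lists, Lyz2 and C1qb of macrophages, the globin gene Hba-a2 and the smooth muscle actin gene Acta2 were listed at 0 there. The globin gene Hbb-bs was at 46.9 FPKM there, against 85.6 to 320 FPKM elsewhere, and Des, which heart muscle also makes, at 28.9 FPKM, against 32.9 to 72.6 FPKM. The macrophage genes C1qa, Cd68 and Csf1r were above 0 there, at 4.02, 3.73 and 3.16 FPKM. Going the other way, the erythroid gene Slc4a1 (5.20 FPKM) and the platelet gene Ppbp (15.7 FPKM) were above 0 there alone. Platelet genes summed to 15.9 FPKM there and to at most 2.66 FPKM elsewhere. The part these cell types play in the endothelial values was not tested. With the 4 predicted genes and the 13 mitochondrially encoded genes left out of the total, the 9 genes held 0.0246%, 0.0218% and 0.0203% of the remaining FPKM across controls, against 0.0133%, 0.0281% and 0.00497% with Eldr cKI.

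**Figure D4:**
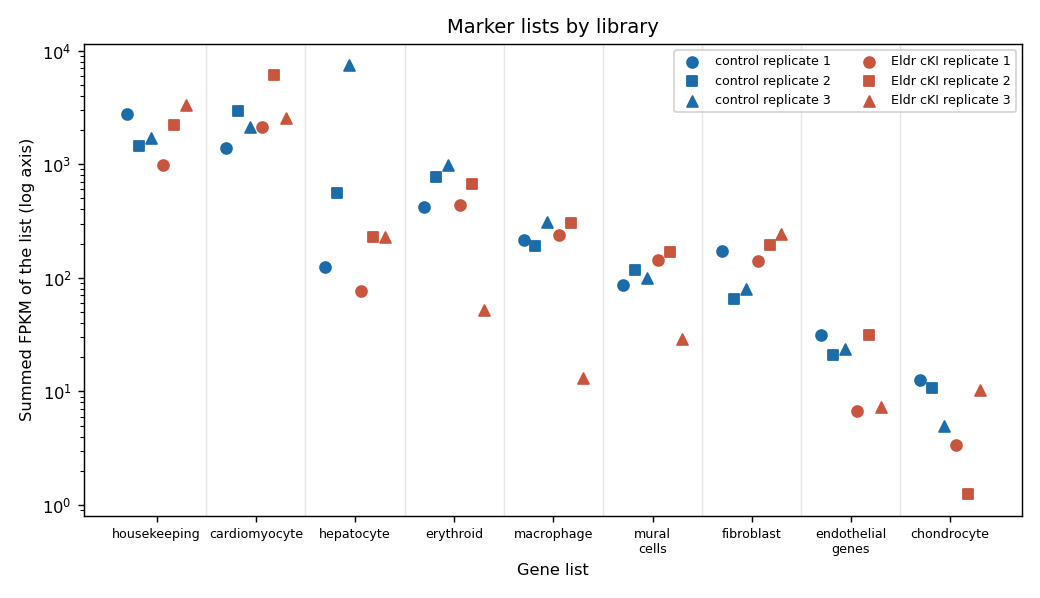
Summed FPKM of marker lists in each library, on a log axis, with control in blue and Eldr cKI in red and the marker shape giving the replicate number. The endothelial sum is lowest in Eldr cKI replicates 1 and 3, and in Eldr cKI replicate 3 the erythroid, macrophage and mural cell sums are the lowest of the 6 libraries.

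The wider endothelial programme was read from 7 further lists of 105 genes, of which 75 had a row and 72 entered the fit. None of the 72 passed in either direction (smallest limma adjusted p = 0.959), where 0.0278% of all genes fitted did. Of the 72, 1 had a limma unadjusted p under 0.05, where 2.34% of all genes fitted did. Below 0 were 45 log2 fold changes and above 0 were 27, with a median of -0.32. Of all genes fitted, 51.1% were below 0, with a median of -0.04. Groups did not overlap for 6 of the 75 genes with the controls higher, a larger share than the 2.39% of all rows. Groups did not overlap for 1, Vcam1, with Eldr cKI higher, a share near the 1.16% of all rows. The lists were chosen with earlier results known, and these shares were not tested. These lists summed to 484, 505 and 340 FPKM across controls, against 217, 372 and 534 FPKM with Eldr cKI, so their lowest sum was in Eldr cKI replicate 1 and their highest in Eldr cKI replicate 3. Many of these genes are also made outside endothelium.

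Among ligands and partners of the receptors, Vegfa, the main VEGF, was at 46.3, 36.3 and 32.5 FPKM across controls, against 5.51, 22.4 and 31.7 FPKM with Eldr cKI. All 3 Eldr cKI values lay below all controls, as they did in 2.39% of all rows, but by less than 1 FPKM at the nearest pair, and Vegfa did not pass (limma log2 fold change -1.19, SE 1.30, adjusted p = 0.959). Vegfb was at 7.39, 34.0 and 0 FPKM across controls, against 0, 0 and 25.3 FPKM with Eldr cKI. Angpt1, the agonist of TIE2, was at 1.43, 0 and 2.28 FPKM across controls and was listed at 0 in all Eldr cKI libraries. That pattern, also that of Tie1, was found in 5.27% of all rows, and Angpt1 was named for its small unadjusted p. Ptprb, the phosphatase that acts on TIE2, was above 0 in all 6 libraries, at 1.12, 2.31 and 12.4 FPKM across controls, against 0.815, 3.26 and 3.20 FPKM with Eldr cKI. Of the 6 genes of this list with a row, 0 passed.

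Of the transcription factors, 17 of 20 had a row and 15 entered the fit, with 0 past the threshold. Sox18, a factor of vascular and lymphatic development, was at 3.66, 0 and 7.32 FPKM across controls and listed at 0 in all Eldr cKI libraries. That pattern was found in 5.27% of all rows, and Sox18 was named for its small unadjusted p. Klf4, at 46.7, 0 and 0 FPKM across controls, against 6.37, 27.2 and 52.1 FPKM with Eldr cKI, and Klf2, at 19.2, 75.4 and 0 FPKM and then 0, 0 and 47.0 FPKM, are induced by flow in endothelium and are also made by other cells. Nr2f2, a factor of venous identity, was above 0 in all 6 libraries, at 8.40, 9.46 and 28.7 FPKM across controls, against 9.30, 13.3 and 8.78 FPKM with Eldr cKI, with groups that overlapped. In the Notch list, 9 genes entered the fit and 0 passed. The ligand Jag1 was at 25.4, 8.38 and 0 FPKM across controls, against 0, 14.3 and 21.6 FPKM with Eldr cKI. Ephb4, a receptor of venous endothelium, was at 7.001, 0 and 0 FPKM across controls, against 0, 0 and 3.90 FPKM with Eldr cKI. Jag2 was listed at 0 in all Eldr cKI libraries, a pattern of 5.27% of all rows. Hey1, a Notch target, was listed at 0 in all controls, a pattern of 3.09%. Jag2 and Hey1 were named for their small unadjusted p. Efnb2, a ligand of arterial endothelium, was at 0, 0 and 11.9 FPKM across controls, against 4.33, 20.8 and 1.51 FPKM with Eldr cKI.

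The list of capillary and junction genes had 32 genes in the fit, 12 above and 20 below 0, and 0 passed. Plvap, a component of the diaphragms of fenestrated vessels, was at 6.01, 15.7 and 0 FPKM across controls and listed at 0 throughout Eldr cKI (limma adjusted p = 0.959), a pattern of 5.27% of all rows. Jam2, a junctional adhesion molecule, was at 4.78, 11.7 and 3.98 FPKM across controls, against 0, 0 and 0.712 FPKM with Eldr cKI. Its groups did not overlap, as in 3.55% of all rows counting both directions and 2.39% with the controls higher. Plvap and Jam2 were named for the smallest unadjusted p of this list, a choice that favours such patterns. Jam2 did not pass (limma log2 fold change -2.58, SE 1.44, adjusted p = 0.959). Cd36, a fatty acid transporter of capillaries that muscle and macrophages share, was at 2.49, 10.1 and 6.56 FPKM across controls, against 6.70, 68.4 and 8.29 FPKM with Eldr cKI, where replicate 2 also had the highest heart muscle sum, 6076 FPKM. Ly6c1 reached 58.7 FPKM in Eldr cKI replicate 3 and was at most 9.29 FPKM elsewhere, and Ly6e was above 0 in every library.

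Liver sinusoid genes had 4 rows of 9, with 0 of 4 past the threshold. Lyve1 was listed above 0 only in control replicate 3, at 10.8 FPKM, the library with the hepatocyte sum of 7414 FPKM. The part of liver cells in that library's endothelial values was not tested. Fcgr2b, which macrophages and B cells also make, ran from 6.25 FPKM in Eldr cKI replicate 3 to 61.2 FPKM in control replicate 3. It was at 59.5 FPKM in Eldr cKI replicate 1, where hepatocyte genes summed to 77.1 FPKM. Mrc1 reached 8.26 FPKM in control replicate 3. Stab1 was listed at 0 in control replicate 3 and was at most 1.87 FPKM elsewhere. Lymphatic genes had 3 in the fit, none past the threshold. Prox1, the factor that specifies lymphatic endothelium and is also made in liver and heart, was at 5.61, 27.98 and 8.47 FPKM across controls, against 0, 3.43 and 0.678 FPKM with Eldr cKI. Its groups again did not overlap, as in 2.39% of all rows with the controls higher (limma log2 fold change -2.64, SE 1.45, adjusted p = 0.959). Reln was at 2.77, 5.67 and 2.49 FPKM across controls and at most 0.872 FPKM in Eldr cKI, and Pdpn was above 0 in 1 library of each group. Of the genes of activated endothelium, 3 of 6 had a row. Lrg1, a secreted glycoprotein that liver and neutrophils also make, was at 4.42, 11.5 and 8.66 FPKM across controls and listed at 0 in all Eldr cKI libraries (limma unadjusted p = 0.0299, adjusted p = 0.959). Vcam1, an adhesion molecule for leukocytes that stromal cells also make, was at 0, 0 and 0.89997 FPKM across controls, against 1.09, 4.48 and 6.47 FPKM with Eldr cKI. Its groups did not overlap and Eldr cKI was the higher, as in 1.16% of all rows, and it did not pass (limma log2 fold change 1.83, SE 1.37, adjusted p = 0.959). The adhesion molecule Icam1 was at 2.58, 0 and 0 FPKM across controls, against 0, 8.05 and 0.953 FPKM with Eldr cKI.

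Genes outside the set that most resembled it were sought by the root mean square difference between centred log2(FPKM + 1) profiles over the 6 libraries, against the mean profile of the 9 genes. That mean was 1.59, 1.39 and 0.98 across controls, against 0.51, 1.75 and 0.47 in Eldr cKI, on the log2 scale. Among 4655 genes with a mean of at least 1 FPKM and above 0 in at least 4 libraries, the nearest were Add1 (difference 0.19), Fth1 (0.26), Eef1a2 (0.27), Cox4i1 (0.29) and Nrp2 (0.30). Add1, a cytoskeletal adducin, was at 17.7, 20.5 and 12.0 FPKM across controls, against 11.1, 22.0 and 11.04 FPKM with Eldr cKI. Nrp2, a co-receptor for VEGF family members and semaphorins, was at 5.18, 2.61 and 2.16 FPKM across controls, against 2.26, 5.53 and 2.54 FPKM with Eldr cKI. The nearest genes were thus mostly broadly expressed ones, chosen from 4655 candidates over 6 points.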

How the data were processed

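RNA sequencing was done on 6 mouse libraries, 3 control and 3 Eldr cKI, grouped by the genotype label. Reads were handled with cutadapt, HISAT2 2.0.5 and StringTie, per the submitters' processing notes, which name the build hg19, although the identifiers and loci are those of mouse: 11017 of 11955 rows have the span and strand of GENCODE M21 on GRCm38. The Cldn5 row is among those that differ. The authors deposited, per the file headers, FPKM for each library and, for each row, a fold change both on the log2 scale and as a linear ratio, with p-values and q-values. The group values they deposited are means of log2(FPKM + 1).

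Fold changes were computed with limma 3.58.1 in R 4.3.3 on log2(FPKM + 1), fitted to all rows with a mean of at least 0.5 FPKM, with a mean-variance trend and a Benjamini-Hochberg adjusted p of 0.05 as the threshold. The pseudocount of 1 understates folds of low genes. FPKM gave no whole counts, so no count test was run. The fit was tested on simulated data. Summaries used Python 3.11.15 and pandas 2.3.3. The steps used for depth had a tolerance of 1 percent and are rough: 25.9% to 39.9% of low values lay within 0.05 of whole steps.

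The genes and lists were chosen with earlier results of these data known. Genes named beyond the 9 were, in each further endothelial list, the 3 with the highest mean FPKM and the 2 with the smallest unadjusted p, and in lists of other cell types the 2 highest. Genes most like the set were the 5 nearest by root mean square difference. Polr2a, Col2a1, C1qa, Cd68, Csf1r, Slc4a1 and the cartilage genes named for want of a row fall outside that rule and were chosen after their values were seen. Lists of platelet, fibroblast and housekeeping genes served as reference: platelet genes (highest Ppbp and Itga2b) summed to at most 15.9 FPKM, fibroblast genes (highest Fn1 and Dcn) to 65.2 to 245 FPKM, and the highest housekeeping genes were Eef1a1 and Actb. Columns of per-sample values that went unused numbered 0.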

Additional observations from a re-analysis of the deposited data

How the results depend on the processing

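Under 16 other ways of processing the 8 members gave 118 values, 10 fewer than possible because members under a filter dropped out. None passed the threshold (limma adjusted p from 0.678 to 1.00), 111 kept their sign and 7 turned: Pecam1 was 0.50 with array quality weights, 1.35 without control replicate 3 and Eldr cKI replicate 1 together, and from -1.31 to 0.57 with 1 library left out, where it turned for either of those libraries, Cdh5 was 0.038 with array quality weights and from -1.17 to 0.082 with 1 library left out, and Vwf was 0.28 with quantile normalization. The members' median, -0.60, was -1.23 with a pseudocount of 0.1 and ran from -1.17 to -0.38 when 1 library was left out. With a filter at 5 FPKM, Eng was the 1 member left and no median was taken. The alternative without Tie1 and Emcn was chosen after seeing the data, and by construction it leaves the median in place.

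The number of genes past the threshold, 3, was 8 with a pseudocount of 0.1, 1 with a filter at 5 FPKM, 0 without the trend, 1 with quantile normalization, 17 with array quality weights, 5 with the replicate block and 0 without control replicate 3 and Eldr cKI replicate 1 together, and ran from 0 to 12 when 1 library was left out. Calls higher in Eldr cKI were 0 of the 3, and 2 of 8 with a pseudocount of 0.1, 1 of 3 with the predicted genes left out, 1 of 2 with mitochondrial genes left out as well, 4 of 17 with array quality weights and 5 of 12 without control replicate 1. The cause was not tested. Leaving out the 4 high predicted genes and rescaling moved the median of all genes from -0.04 to 0.22 and that of the members to -0.32. Same-numbered libraries did not deviate together (correlations of deviations -0.16, 0.037 and -0.19, and control replicate 1 correlated most with Eldr cKI replicate 3, at 0.29), so the numbers are taken as names only, and the replicate block changed no member's call. By the rough steps most members rest on a few fragments per library, so every value here is imprecise. The part of depth in these values was not tested.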
